A study of Arabidopsis thaliana with 6 samples.

Results

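Lectins are proteins that bind sugars, and plants carry several unrelated lectin families. The genes described here are 9 loci of Arabidopsis thaliana from 2 of them, the soluble legume-type lectin genes AT3G15356, AT3G16530, AT5G03350, AT1G53070 and AT1G53080 and the mannose-binding lectin-like genes AT1G78820, AT1G78830, AT1G78850 and AT1G78860 of the AT1G788 group on chromosome 1. They were taken by locus code from the 29920 loci measured, and each had 1 row in the deposited table. They were selected on their measured line difference, because several of these genes were more than 10-fold higher in the ERF6-overexpressing line. Their differences between the lines are therefore given as a description. No test is read from them, and the number past the threshold used for all rows is stated once, beside its background.

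The material was leaf 3, dissected from Col-0 seedlings aged 9 DAS, and total RNA was measured on AGRONOMICS1 tiling arrays. One group was the strong ERF6-overexpressing line ERF6:IOE and the other the control line GFP:IOE, with 3 arrays each, numbered as biological repeats 1 to 3. Seedlings of both lines had been on medium with 5 µM dexamethasone for 4 h, so the inducer was common to all arrays. ERF6 (ETHYLENE RESPONSE FACTOR 6) encodes an AP2/ERF-type regulator of transcription. The series' design text gives independent experiments with several plates in each. The sources used here do not give the promoter of the transgenes or the number of transformation events behind each line, and arrays from before induction were not analysed here. In whole leaves, a change in the share of cells of a type and a change in transcript per cell cannot be told apart.

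Legume-type lectins share the fold of concanavalin A. In Arabidopsis the same domain also forms the outer part of membrane-bound lectin receptor kinases, some of which act in the perception of microbes and of extracellular nucleotides, whereas the genes described here encode small proteins without a kinase. Lectins of the GNA type, named after the snowdrop agglutinin, bind mannose, and the AT1G788 proteins join such a domain to an apple-like domain. Plant lectins of both kinds are known from defence, where they bind glycans of microbes or of the plant's own cell surface.

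Values are log2 expression after RMA, in which 1 unit is a 2-fold difference, and means are given ± SD with n = 3 arrays per line. A row was called where the adjusted p in limma, over all 30237 rows, was under 0.05. The check of the labels held, with ERF6 transcript at 10.1 ± 0.25 in ERF6:IOE and 7.27 ± 0.34 in GFP:IOE (limma adjusted p 0.00107). The 4 measured leaf mesophyll markers lay between the 98.5th percentile and the top of every array, while 17 markers of root, shoot meristem, phloem, trichomes and guard cells lay between the 10.2nd and the 88.2nd percentile. None of these 21 markers was called in limma, where 0.698% of all rows were called higher and 0.0265% lower. None had an unadjusted p under 0.05 in limma, where all rows gave 4.80% higher and 3.22% lower.

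Transcripts of all 9 lectin genes had a higher mean in ERF6:IOE, and the size of the difference ran from a barely visible shift to more than 80-fold. In the fit over all rows, 5 of the 9 fell among the rows called higher, which made up 0.698% of all rows, and 0 among those called lower, which made up 0.0265%. The lines did not overlap for 8 of the 9, against 6.93% of all rows that lay wholly higher in ERF6:IOE, and 3 of the 9 were more than 10-fold higher, against 0.0397% of all rows. The genes were chosen on this difference, so nothing is read from these counts. The median log2 fold was 2.02 over the 9 genes, 0.84 over the 5 legume lectin genes and 2.23 over the 4 AT1G788 genes, beside -0.015 over all rows.

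**Figure D1:**
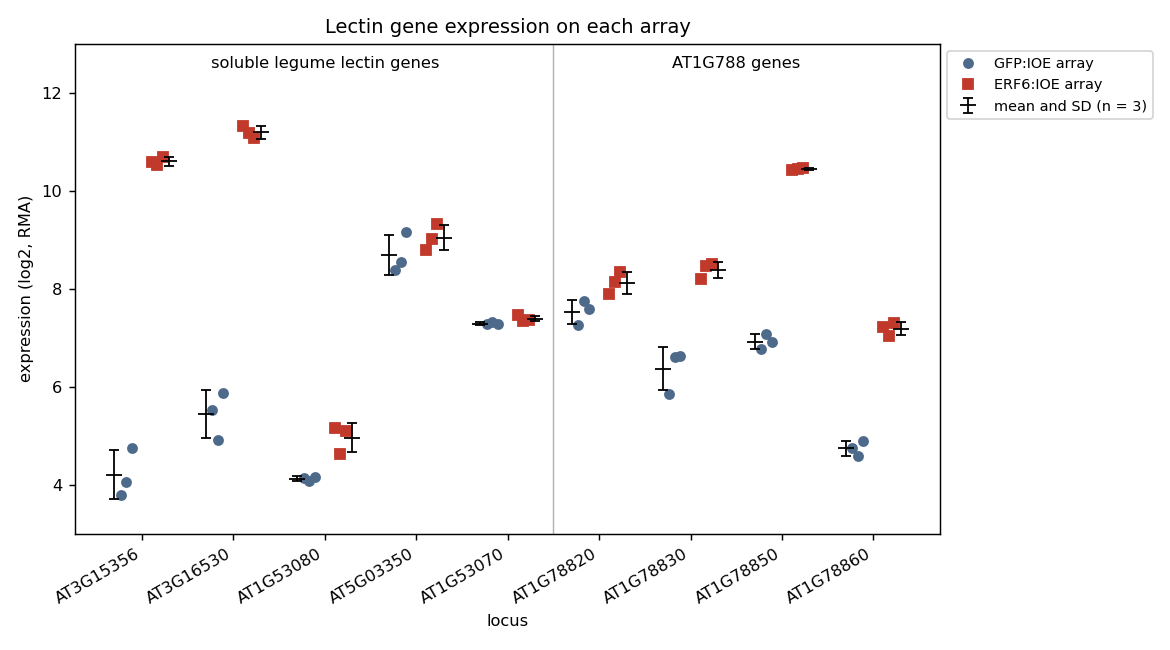
Log2 expression (RMA) of each lectin gene on the 3 GFP:IOE arrays (circles) and the 3 ERF6:IOE arrays (squares), with the mean and SD of each line beside the points and the arrays in the order of repeats 1 to 3. The lines overlap only for AT5G03350, and AT3G15356 and AT3G16530 show the widest separation, with every ERF6:IOE array above 10.5.

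AT3G15356 showed the widest separation of the lines among the 9 genes. On repeats 1, 2 and 3 it stood at 3.79, 4.06 and 4.76 in GFP:IOE and at 10.6, 10.5 and 10.7 in ERF6:IOE. All ERF6:IOE arrays were thus close to each other and far above the control, with 5.76 between the lowest ERF6:IOE and the highest GFP:IOE array. The mean went from 4.20 ± 0.50 to 10.6 ± 0.09, a log2 fold of 6.40 (SE 0.23), or 84.4-fold, which ranked 4 among the 30237 rows. In GFP:IOE the gene was dim, between the 16.4th and the 46.5th percentile of the array and below the lower quartile on 1 of the 3 arrays. RMA compresses values in that range, so the fold is approximate. In ERF6:IOE it stood at or above the 97.7th percentile.

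AT3G16530, which encodes a lectin-like protein known to be induced by chitin oligomers, had the next largest difference. It stood at 5.52, 4.92 and 5.88 in GFP:IOE and at 11.3, 11.2 and 11.1 in ERF6:IOE. The control arrays were spread over almost 1 log2 unit while those of ERF6:IOE lay close together, and the groups were 5.19 apart at their nearest. The mean went from 5.44 ± 0.49 to 11.2 ± 0.13, a log2 fold of 5.76 (SE 0.23), or 54.0-fold, ranking 6 among all rows.

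AT5G03350 encodes a legume lectin-like protein known for its induction by salicylic acid, and it was the 1 gene of the 9 whose lines overlapped. It stood at 8.39, 8.54 and 9.15 in GFP:IOE and at 8.80, 9.02 and 9.32 in ERF6:IOE. The GFP:IOE array of repeat 3 was higher than the ERF6:IOE arrays of repeats 1 and 2. The log2 fold was 0.35 (SE 0.22). This gene was bright in both lines, at or above the 91.7th percentile of every array.

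AT1G53070 and AT1G53080 are neighbours on chromosome 1 and gave different values. AT1G53070 stood at 7.28, 7.32 and 7.27 in GFP:IOE and at 7.45, 7.34 and 7.37 in ERF6:IOE. The lines did not overlap there, but by a gap of only 0.021, and the log2 fold was 0.10 (SE 0.09). AT1G53080 stood at 4.13, 4.07 and 4.16 in GFP:IOE and at 5.16, 4.62 and 5.10 in ERF6:IOE. Its control arrays were nearly equal and ERF6:IOE replicate 2 was the lowest of its line. The log2 fold was 0.84 (SE 0.15), or 1.79-fold, and 1.01 without that array. In GFP:IOE AT1G53080 was dim, between the 25.5th and the 28.5th percentile, just above the lower quartile. RMA compresses values there, so the fold and the small control spread are approximate.

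The AT1G788 group spanned differences from 1.51-fold to 11.6-fold. AT1G78850 encodes a lectin with a GNA-type and an apple-like domain, known as GAL1 from its binding to the purple acid phosphatase PAP26. It stood at 6.76, 7.07 and 6.91 in GFP:IOE and at 10.4, 10.4 and 10.5 in ERF6:IOE. The 3 ERF6:IOE arrays were almost equal, and the lines were 3.37 apart at their nearest. The mean went from 6.91 ± 0.15 to 10.4 ± 0.02, a log2 fold of 3.53 (SE 0.11), or 11.6-fold, ranking 12 among all rows.

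AT1G78860, the next gene and a close relative, stood at 4.75, 4.58 and 4.88 in GFP:IOE and at 7.23, 7.03 and 7.30 in ERF6:IOE. The groups lay 2.15 apart and the order of the 3 repeats was the same in both. The log2 fold was 2.45 (SE 0.12), or 5.45-fold, ranking 24. Among the 9 genes, AT1G78850 had the smallest fold above 10-fold and AT1G78860 the largest below it. Probes that both transcripts could bind were not separated in these values, so part of the signal of either may come from the other.

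AT1G78830 stood at 5.86, 6.62 and 6.62 in GFP:IOE and at 8.19, 8.46 and 8.50 in ERF6:IOE. GFP:IOE replicate 1 was the lowest control array, and the groups were 1.58 apart. The log2 fold was 2.02 (SE 0.22), or 4.06-fold, ranking 42. AT1G78820 stood at 7.26, 7.74 and 7.59 in GFP:IOE and at 7.90, 8.14 and 8.34 in ERF6:IOE, so that the groups did not overlap but came within 0.15 of each other. Its log2 fold was 0.60 (SE 0.17), or 1.51-fold.

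**Figure D2:**
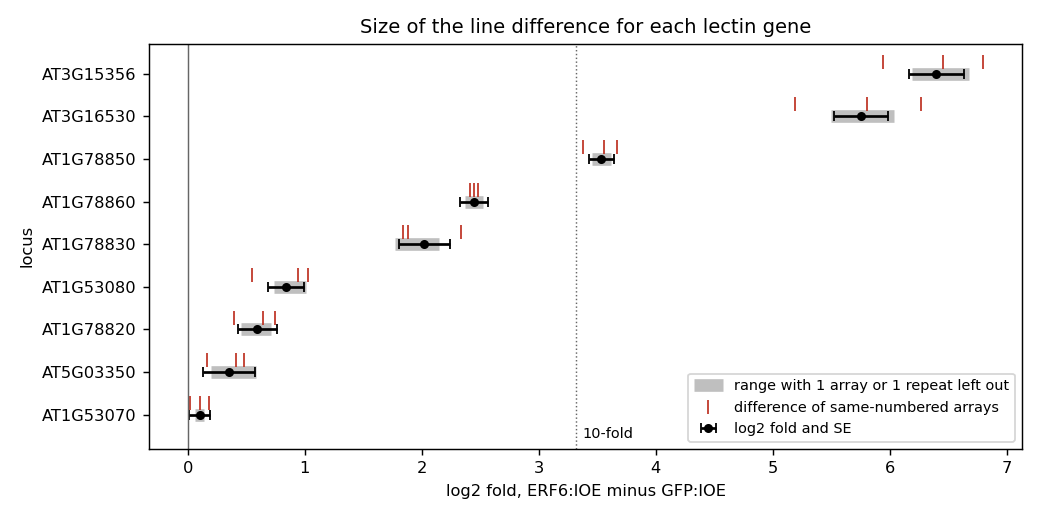
Log2 fold (ERF6:IOE minus GFP:IOE) of each lectin gene with its SE (points and bars), the range of the log2 fold when 1 array or 1 repeat of both lines was left out (grey), and the difference of the arrays that share a repeat number (red ticks). The dotted line marks 10-fold, which AT3G15356, AT3G16530 and AT1G78850 exceed.

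Ordered by log2 fold, the 9 genes are set here beside their leave-out ranges. These ranges re-use the same arrays and are not sampling errors. AT3G15356 (6.40, SE 0.23) and AT3G16530 (5.76, SE 0.23) stood well above AT1G78850 (3.53). AT3G15356 ranged from 6.19 to 6.68 and AT3G16530 from 5.50 to 6.04 when 1 array or 1 repeat was left out. These ranges did not meet. The differences between same-numbered arrays did overlap, at 5.94 to 6.80 for AT3G15356 and 5.19 to 6.27 for AT3G16530. AT1G78860 and AT1G78830 followed, with leave-out ranges of 2.37 to 2.52 and 1.77 to 2.15. The lower genes followed each other closely. AT1G53080 ranged from 0.74 to 1.01 and AT1G53070, the lowest, from 0.06 to 0.14. The leave-out ranges of AT1G78820 (0.46 to 0.71) and AT5G03350 (0.20 to 0.58) overlapped. No test was made of these differences between genes.

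Spread between arrays was larger in the control line for most of the lectin genes. The SD was larger in GFP:IOE than in ERF6:IOE for 7 of the 9, against 47.8% of all rows. It was 0.15 against 0.016 for AT1G78850, 0.50 against 0.093 for AT3G15356, 0.49 against 0.13 for AT3G16530 and 0.44 against 0.17 for AT1G78830. For AT5G03350 it was 0.40 against 0.26. The SDs were close for AT1G78860, at 0.149 against 0.137, and for AT1G78820, at 0.249 against 0.220. The SD was larger in ERF6:IOE for AT1G53080, at 0.30 against 0.050 in GFP:IOE, and for AT1G53070, at 0.057 against 0.029. AT1G53080 and AT3G15356 were both dim in GFP:IOE, where RMA compresses values, and their SDs there were 0.050 and 0.50. Whether level bears on these SDs was not tested. Each SD comes from 3 arrays, and the differences between lines were not tested. Repeat 3 was the highest array in both lines for AT3G15356, AT5G03350, AT1G78830 and AT1G78860. Over all rows 12.8% had repeat 3 highest in both lines, and 40.4% had the same repeat number, whichever it was, highest in both. No other repeat number was highest in both lines for any of the 9, and this share was not tested.

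Genes that lie beside the lectin genes were not called, which is near the share over all rows. Of 21 loci that are the nearest 2 on either side of a lectin gene and are not among the 9, 17 had a row. In limma 0 of the 17 were called, where 0.698% of all rows were called higher and 0.0265% lower. At an unadjusted p under 0.05 in limma there was 1 locus, where all rows gave 4.80% higher and 3.22% lower. The 17 loci had a median log2 fold of 0.07 and a range of -0.39 to 0.61. AT1G78840, which lies between AT1G78830 and AT1G78850, had a log2 fold of -0.07 (95% interval -0.38 to 0.23, limma adjusted p 0.949). Next to AT1G78820 on the outer side of the AT1G788 group, LSH7 had -0.37 (SE 0.17), with values below the lower quartile on every array. The 2 loci beyond AT1G78860 had no row, and the next measured locus there, UBC35, a ubiquitin-conjugating enzyme gene outside the 21, had 0.11 (SE 0.11). The 1 neighbour with the largest difference was itself a legume lectin gene, AT1G53060, next to AT1G53070. It stood at 5.47, 5.83 and 5.79 in GFP:IOE and at 6.21, 6.29 and 6.42 in ERF6:IOE, without overlap. Its log2 fold of 0.61 (SE 0.13) did not pass in limma (adjusted p 0.138).

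**Figure D3:**
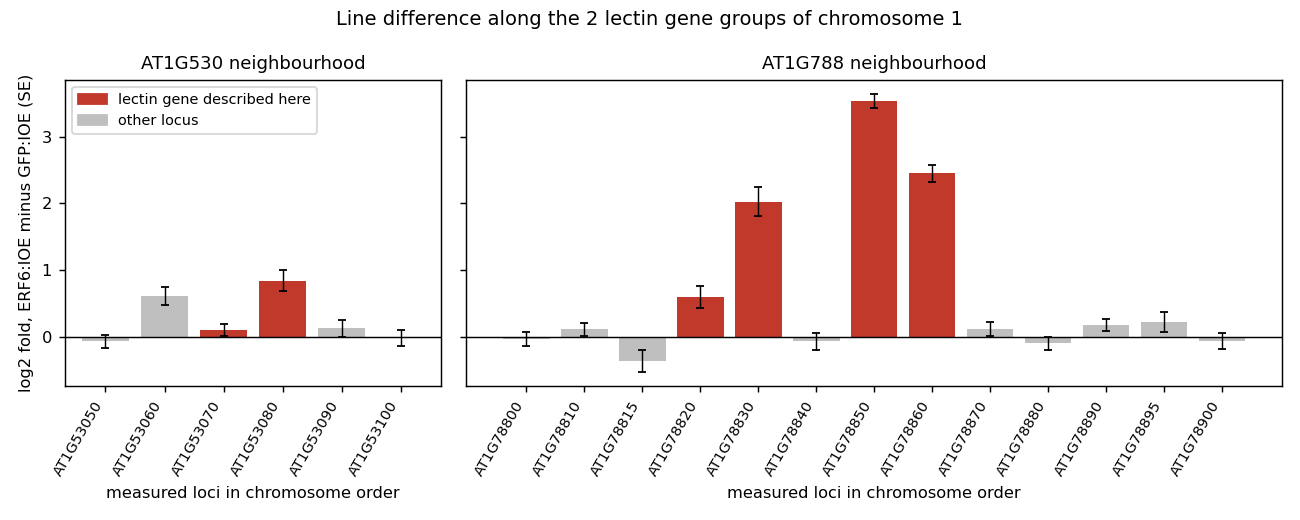
Log2 fold (ERF6:IOE minus GFP:IOE, bars, with SE) of the measured loci around the AT1G530 and AT1G788 lectin genes, in chromosome order and not to scale along the chromosome. In the AT1G788 group the 4 lectin genes stand above 0.5 while AT1G78840 between them and the loci shown on either side lie between -0.37 and 0.22.

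Other lectin families of the genome held a small number of called genes, at a larger share in the main fit than over all rows. Over 8 families with 175 further genes, 5 were called higher (2.86%, against 0.698% of all rows) and 0 lower in limma. With 1 array left out, 2 or 3 of the 175 (1.14% to 1.71%) were called higher, against 87 to 126 of all rows (0.288% to 0.417%). With both arrays of a repeat left out 0 or 1 were (up to 0.571%), against 45 to 53 of all rows (0.149% to 0.175%). At an unadjusted p under 0.05 in limma, 15 were higher (8.57%) and 4 lower (2.29%), where all rows gave 4.80% higher and 3.22% lower. The 175 genes had a median log2 fold of -0.012, as against -0.015 over all rows, and 48.0% were positive beside 46.2% of all rows. None of these differences between lists was tested.

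Among the legume-type genes outside the 9, no member was called. Over all rows 0.698% were called higher and 0.0265% lower, so lists of 5 and 44 genes would often hold no call. At an unadjusted p under 0.05 in limma, all rows gave 4.80% higher and 3.22% lower. The 5 other soluble legume lectin genes had a median log2 fold of -0.04 (limma, 1 higher and 0 lower at an unadjusted p under 0.05), and AT1G07460 stood lowest at -0.20 (95% interval -0.55 to 0.15). The 44 lectin receptor kinase genes had a median of -0.04 and a range from -0.33 to 0.40 (limma, 1 higher and 1 lower at an unadjusted p under 0.05). AT5G60270 (LecRK-I.7) was highest at 0.40 (SE 0.11, limma adjusted p 0.274) and AT3G59730 (LecRK-V.6) lowest at -0.33 (SE 0.17). The interval of AT3G59730 ran from -0.73 to 0.06. Both were dim, with all GFP:IOE values of AT5G60270 and all ERF6:IOE values of AT3G59730 below the lower quartile of their arrays.

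Genes with a GNA-type domain gave 3 of the 5 calls, from lists of 5 and 38 genes, where 0.698% of all rows were called higher. Of these 3, AT5G18470 and AT1G11330 lost their calls when any 1 array was left out, as given below. Among 5 other GNA-type lectin genes, AT5G18470 rose from 3.85 ± 0.21 to 5.00 ± 0.23, or 2.21-fold (limma adjusted p 0.0268). Its arrays stood at 4.01, 3.61 and 3.93 in GFP:IOE and at 5.26, 4.89 and 4.84 in ERF6:IOE, with all control arrays below those of ERF6:IOE. The 3 control values lay below the lower quartile of their arrays, so this fold is approximate. AT3G51710 of the same list had a log2 fold of -0.20 (95% interval -0.54 to 0.14). S-domain receptor kinases carry a GNA-type domain outside the cell and a kinase inside it, and 2 of the 38 were called. AT4G27300 rose 5.66-fold, from 3.86, 3.64 and 3.68 in GFP:IOE to 6.60, 6.25 and 5.83 in ERF6:IOE (log2 fold 2.50, SE 0.19, limma adjusted p 0.0017). Its GFP:IOE values lay between the 12.3rd and the 18.7th percentile, below the lower quartile on all 3 arrays, and the fold is approximate for the same reason. AT1G11330 rose 1.74-fold, from 4.30 ± 0.08 to 5.10 ± 0.14 (limma adjusted p 0.0261), a call that was lost in the fit blocked on repeat number (limma adjusted p 0.0719). At an unadjusted p under 0.05 in limma, 6 of the 38 S-domain genes were higher (15.8%) and 0 lower. All rows gave 4.80% higher and 3.22% lower. The S-domain list had a median log2 fold of 0.06, with 25 of the 38 positive, and the difference from all rows was not tested.

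The calls of AT5G18470 and AT1G11330 rested on all arrays. Without any 1 of the 6 arrays AT5G18470 was not called (limma adjusted p 0.0702 to 0.097) and neither was AT1G11330 (0.0532 to 0.122), with log2 folds from 1.01 to 1.23 and from 0.74 to 0.88. AT4G27300 lost its call in 1 of 18 alternatives, in which both arrays of repeat 2 were left out (2.45, limma adjusted p 0.0776).

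LYK4, a LysM receptor kinase gene that acts in chitin perception, was the 1 called of 8 LysM genes (all rows 0.698% called higher). It stood at 3.85, 3.97 and 4.13 in GFP:IOE and at 5.17, 5.22 and 5.32 in ERF6:IOE, and rose 2.39-fold (log2 fold 1.26, SE 0.11, limma adjusted p 0.00336). Of its GFP:IOE arrays 2 were below the lower quartile, so this fold too is approximate. Its call held with any 1 array left out, but leaving out both arrays of repeat 1, 2 or 3 ended it (limma adjusted p 0.0764, 0.13 and 0.0532). LYM1, a membrane-anchored LysM protein gene, had -0.18 (95% interval -0.41 to 0.06), and the list's median was -0.10. PP2-A5 was the 1 called of 30 genes of the PP2 family, which share a domain with the tobacco lectin Nictaba. It stood at 4.56, 4.36 and 4.81 in GFP:IOE and at 5.96, 5.61 and 5.80 in ERF6:IOE, 2.32-fold higher (log2 fold 1.22, SE 0.15, limma adjusted p 0.0174). It was not called without ERF6:IOE replicate 1 (limma adjusted p 0.0681) or 3 (0.0808), GFP:IOE replicate 1 (0.0816) or 2 (0.0708), or both arrays of any 1 repeat (up to 0.229). PP2-B13 had 0.86 (SE 0.19, limma adjusted p 0.165) and passed without ERF6:IOE replicate 3 (log2 fold 1.08, limma adjusted p 0.0326). That array, at 3.47, was the lowest of its line. In GFP:IOE PP2-B13 lay between the 2.27th and the 4.59th percentile, below the lower quartile on all 3 arrays, so its fold is approximate. Of the 30 PP2 genes 4 were higher (13.3%) and 0 lower at an unadjusted p under 0.05 in limma (all rows 4.80% and 3.22%). The list's median was 0.03.

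Of 44 jacalin-related lectin genes 0 were called in limma (all rows 0.698% higher and 0.0265% lower). At an unadjusted p under 0.05 in limma, 1 was higher and 3 lower (all rows 4.80% and 3.22%). The median log2 fold of these genes was 0.0037. AT1G52110 was lowest, at 4.38, 4.16 and 4.29 in GFP:IOE and 3.68, 3.30 and 3.64 in ERF6:IOE. Its lines did not overlap, and its log2 fold of -0.74 (SE 0.13) missed the threshold (limma adjusted p 0.0734). All its ERF6:IOE values lay below the lower quartile of their arrays, so this fold is approximate. AT5G38540 was highest at 0.47, with ERF6:IOE replicate 2 (4.80) well above the other arrays of its line (3.93 and 4.01). Those 2 arrays and all of GFP:IOE had it below the lower quartile. EULS3, the Euonymus-type lectin gene, had 0.14 (95% interval -0.17 to 0.45).

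**Figure D4:**
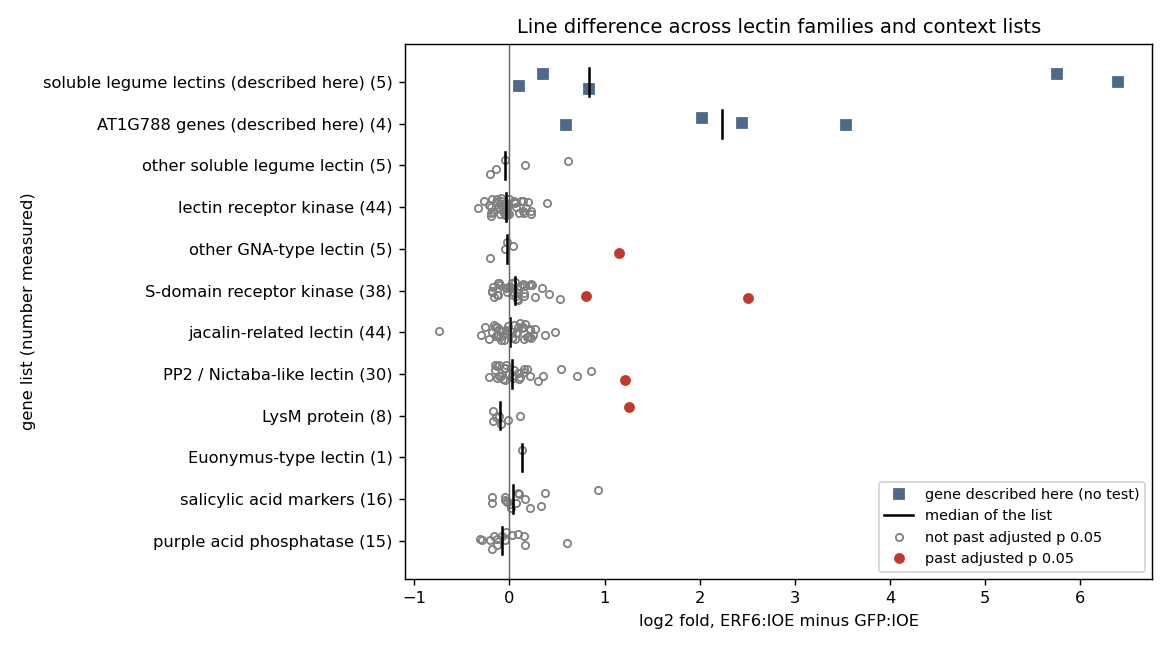
Log2 fold (ERF6:IOE minus GFP:IOE) of each measured gene of the lectin families and of the 2 context lists, with the 9 genes described here as squares, called genes of the other lists filled, the rest open and the list median as a bar. The genes called outside the 9 lie between 0.80 and 2.50, and the medians of the other lists lie between -0.10 and 0.14.

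Salicylic acid markers were examined because AT5G03350 is known to respond to that hormone. Of 16 markers 0 were called in limma (all rows 0.698% higher and 0.0265% lower). At an unadjusted p under 0.05 in limma, 3 were higher and 0 lower (all rows 4.80% and 3.22%), and the median log2 fold was 0.04. PR1 stood at 5.67, 5.50 and 5.67 in GFP:IOE and at 5.97, 5.17 and 5.74 in ERF6:IOE, with a log2 fold of 0.014 (95% interval -0.45 to 0.48). BGL2, which encodes the glucanase PR2, stood at 4.71, 4.56 and 4.91 and at 4.56, 4.40 and 4.66, with -0.19 (95% interval -0.49 to 0.11). In BGL2 as in AT5G03350, repeat 3 was the highest array of both lines. PR5, a thaumatin-like protein gene, stood at 6.61, 6.51 and 6.99 and at 7.75, 7.85 and 7.30 without overlap, and its log2 fold was 0.93 (SE 0.18, limma adjusted p 0.11). WRKY38 had 0.37 (SE 0.12), with all its GFP:IOE values and 2 of its ERF6:IOE values below the lower quartile.

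PAP26, the purple acid phosphatase gene whose product binds the AT1G78850 protein, stood at 7.95, 8.25 and 8.21 in GFP:IOE and at 8.03, 8.21 and 8.26 in ERF6:IOE. The lines overlapped throughout, and the log2 fold was 0.030 (95% interval -0.26 to 0.32). Of 15 purple acid phosphatase genes 0 were called in limma (all rows 0.698% higher and 0.0265% lower). At an unadjusted p under 0.05 in limma, 1 was higher and 2 lower (all rows 4.80% and 3.22%). The median log2 fold of these genes was -0.08. PAP12 had 0.61 (SE 0.14, limma adjusted p 0.18) and PAP17 -0.31 (SE 0.10, limma adjusted p 0.393).

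For the 3 lectin genes with the largest log2 fold, the rows most like them over the 6 arrays were found by the root mean square difference of their values, each taken relative to the row's GFP:IOE mean. AT3G15356 was nearest to the defensin gene LCR67 (0.44), the defensin gene PDF1.2b (0.55) and DIN11, a dioxygenase gene (0.56). AT3G16530 was nearest to AT3G23550, of the MATE efflux family (0.27), to AT1G27020 (0.30) and again to LCR67 (0.52). AT1G78850 was nearest to the AP2/ERF factor gene RAP2.9 (0.24), to AT4G18205 (0.32) and to WRKY18 (0.34). The measure is dominated by the size of the line difference, so these are mainly the rows of like fold, and it is a description over 6 arrays.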

How the data were processed

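The deposited table holds log2 expression values made by the authors, with RMA and limma and the TAIR9 build named in the submitters' processing notes. The sources used here give no versions or settings. Through its background step, quantile normalization and probe summary, RMA removes overall shifts between arrays and compresses low values. Values ran from 2.16 to 14.2. The table has no detection calls. Precision is limited by the number of arrays. The 30237 rows cover 29920 loci, and for a listed locus with several rows the brighter was used. Arrays correlated across rows with r from 0.984 to 0.987 within a line and from 0.977 to 0.983 between lines, and none held identical values.

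The lines were compared with limma 3.58.1 in R 4.3.3 (lmFit, eBayes, two-sided), with Benjamini-Hochberg adjustment over all rows and no filter. SE is the moderated standard error. In simulated data for this comparison (30237 independent rows, 10 runs, 200 changed rows each), 20.8% of 1.5-fold, 58.2% of 2-fold, 91.8% of 4-fold and 98.2% of 10-fold changes were recovered. Each simulated row took the residual SD of its real row as if known, and no repeat effect was added. These rates describe the simulation and do not measure the power of the real comparison.

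The 9 genes and all lists were chosen with earlier results of these data known. The 10 lists hold 206 genes, all measured. Membership rests on general knowledge of these families, and symbols and the order of neighbouring loci come from a RefSeq table of TAIR10.1. Coordinates are left out because that build is not the files'. No sequence was used. Named by rule were the 9 genes, ERF6, PAP26, PR1, PR2 and PR5, all called genes of a list and otherwise those of largest absolute log2 fold up to 2, the 3 nearest rows of the 3 lectin genes with the largest log2 fold, and called neighbours. AT1G53060, AT1G78840, LSH7 and UBC35 were named as neighbours after their values were seen. The labels call the samples biological repeats. Alternatives were a block for the repeat number, 2 filters on level, 3 normalizations, a variance trend, array weights, averaged rows, and leaving out each array and each repeat.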

Additional observations from a re-analysis of the deposited data

How the results depend on the processing

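The log2 folds of the 9 lectin genes kept their direction in all 161 values under 18 alternatives and moved by less than the SD pooled over both lines, although several alternatives leave them unchanged by construction. For 6 of the 9 the largest move exceeded the smaller of the lines' own SDs. Rows higher were 211 (0.698% of rows tested), and 143 (0.473%) with the repeat number as a block. They were 277 (0.916%) with a variance trend, 277 (1.31%) above the 30th percentile of level and 268 (1.77%) above the median. The share over all rows given as background thus moved with the setting. Rows lower were 8, and 5 with the repeat number as a block, 14 above the 30th percentile of level and 22 above the median, the filters testing fewer rows. With an array or a repeat left out, rows higher were 45 to 126 instead of 211 and rows lower 1 to 6. Listed genes called higher were 0 to 3 instead of 5, with fewer samples, and 3 above the median of level, where fewer rows are tested. None was called lower. Of 540 values of other named genes 500 kept direction and call, 30 lost a call and 2 gained one, of which PR5 passed above the median of level (limma adjusted p 0.0465). The 8 changes of sign were of PR1 (-0.033 with array weights, -0.16 to 0.24 with samples left out) and PAP26 (-0.064 to 0.098), neither of which was called.

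The main fit did not pair the arrays by repeat number. Deviations of same-numbered arrays correlated weakly but positively, with r of 0.19, 0.078 and 0.21. Arrays of different number gave r from -0.22 to 0.027, and every array correlated best with its own number. The deviations were taken from the line mean, which ties the arrays of a line together. These r values are therefore not independent, and part of the contrast between them is built in. Whether same-numbered arrays came from a shared experiment was not tested. The unpaired fit called more rows higher than the blocked fit did (211 and 143). With the repeat number as a block 4 listed genes were called, since AT1G11330 lost its call (limma adjusted p 0.0719). Signal over background was not analysed here.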
